A study of Mus musculus with 8 samples.

Results

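The subject is how far the response of gene expression to CBD in ASZ cells carrying RasV12 departed from the response in wild-type (WT) ASZ cells. ASZ is a line grown from a mouse basal cell carcinoma, a skin tumour of basal keratinocytes, and RasV12 is Ras, a small GTPase of growth signalling, locked in its active state. The study had 4 groups of 2 RNA-seq libraries each, which were RasV12 cells with CBD, RasV12 cells with DMSO (the vehicle), WT cells with CBD and WT cells with DMSO. What CBD stands for is not written out in the labels, which give no dose, no exposure time, no Ras gene, no promoter for the construct and no number of clones. All 4 groups share the tumour line itself, so each effect is that of 1 line. A gene was a member if both deposited tables listed it and it reached 1 FPKM (fragments per kilobase of transcript at a fixed number of sequenced fragments, a level per transcript length) in at least 1 group of each line. For each member the response was log2((CBD FPKM + 1)/(DMSO FPKM + 1)), centred on the median of its line, and the response in WT cells was subtracted from that in RasV12 cells. This gave 10449 genes out of 22543 gene symbols listed in both tables, and 10431 of them could be tested.

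Ras passes growth factor signals to the MAP kinase cascade, which switches on immediate early genes such as Egr1 and Fos and their own brakes, among them the Dusp phosphatases and the Sprouty proteins. Hedgehog signalling, which drives basal cell carcinoma, runs through Smo and the Gli factors and in mammals depends on the primary cilium, and the title of the series concerns a switch from the Hedgehog to the Ras/MAPK pathway when cilia are lost. YAP, which acts through the TEAD factors, and Notch are further pathways that basal keratinocytes use to set growth and differentiation.

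The deposited tables gave 1 FPKM per group and, for each line, the p-value by which the authors compared CBD with DMSO, with no value per library. The spread between the 2 libraries of a group can therefore not be shown, and the standard error (SE) of a response is the one implied by the authors' p-value. The deposited values do not show how the authors' p-value was formed from the 2 libraries. The labels do not say whether these came from separate cultures, so any spread it reflects may be technical. The depth of the libraries is unknown. FPKM summed over the genes used to 649936 in RasV12 CBD, 430171 in RasV12 DMSO, 526788 in WT CBD and 366812 in WT DMSO cells. The keratinocyte markers Krt5, Krt14 and Trp63 were expressed in all 4 groups, Krt14 at 3609 FPKM in RasV12 CBD, 4745 in RasV12 DMSO, 4109 in WT CBD and 5277 in WT DMSO cells. Of 9 listed fibroblast markers, none reached 1 FPKM in any group, and their summed level was between 0.271 and 1.503 FPKM. Of 8 immune markers, Cd68 was the one above 1 FPKM in every group, at 53.8 FPKM in RasV12 CBD, 31.7 in RasV12 DMSO, 16.5 in WT CBD and 8.99 in WT DMSO cells. Of 7 endothelial markers, Pecam1 and Egfl7 reached 1 FPKM in every group, and the summed level was 31.5, 21.8, 15.4 and 18.2 FPKM in RasV12 CBD, RasV12 DMSO, WT CBD and WT DMSO cells. Of 7 melanocyte markers, Mitf reached 1 FPKM in every group, and the summed level was 3.51, 10.6, 5.76 and 8.35 FPKM in the same groups. The part of these markers in any result was not tested. In such bulk RNA, fewer cells of a kind and less RNA per cell cannot be told apart.

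Most of the response to CBD was common to the RasV12 and WT lines. Over the 10431 genes the centred responses had a Spearman correlation of 0.83 and a Pearson correlation of 0.80, and 83.8% of the genes had a response of the same sign in both lines. These values are across genes of the same 4 groups, and genes are not independent replicates. The difference of the responses had a median of -0.05 and quartiles of -0.34 and 0.27 on the log2 scale, with a median SE of 0.38. With a two-sided normal test and Benjamini-Hochberg adjustment over all tested genes, 150 genes (1.44%) had a response that was higher in RasV12 cells and 111 (1.06%) one that was lower, at an adjusted p under 0.05. Before adjustment 1226 genes had a p under 0.05. The share of higher calls was 57.5% with the responses centred. Without centring it was 92.1%. With equal FPKM sums, where the CBD values of each line were scaled to the sum of its DMSO values, it was 88%. The uncentred responses of RasV12 cells lay 0.365 higher relative to those of WT cells. Among list members described below as called lower, Spry2, Klf6, Slc3a2, Hspb8, Pmvk and Ndrg1 were called in neither of these scalings.

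**Figure D1:**
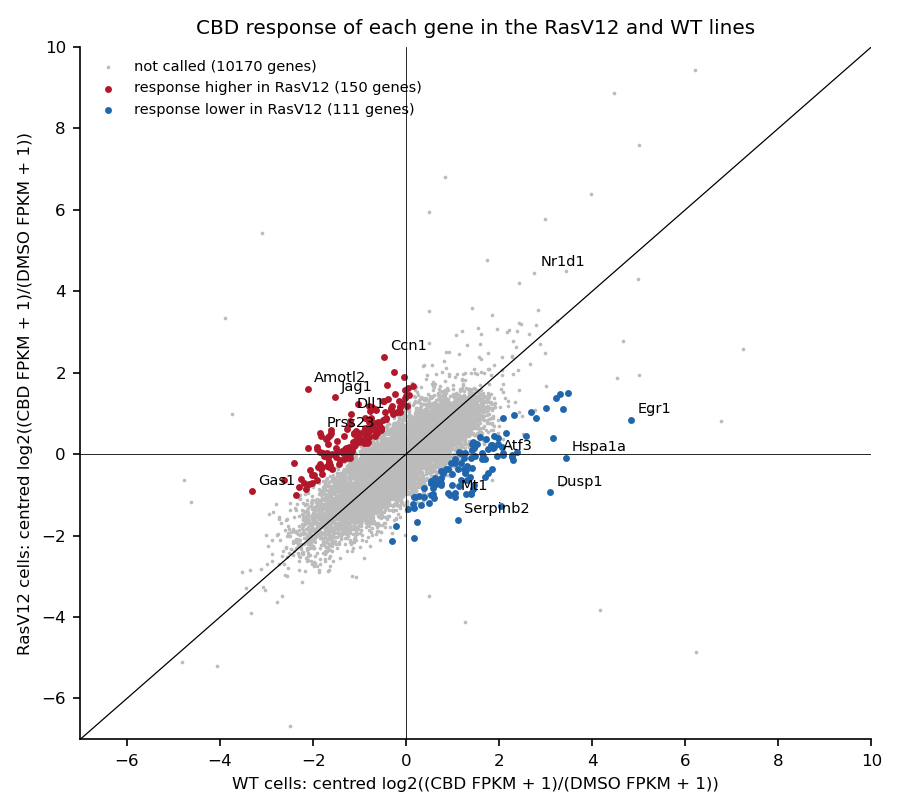
Centred log2 response to CBD of every tested gene in RasV12 cells (vertical axis) against WT cells (horizontal axis), with the diagonal of equal responses. Most of the 10431 grey and coloured points lie along the diagonal. The 150 red genes lie above it and the 111 blue genes below it, and scattered grey points far from the diagonal are mostly short RNAs with large errors.

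The within-line calls show where each gene moved. CBD raised 2014 of the tested genes (19.3%) in RasV12 cells and 1453 (13.9%) in WT cells, and lowered 2582 (24.8%) in RasV12 cells and 4451 (42.7%) in WT cells, by the authors' p-values after Benjamini-Hochberg adjustment within each table. These calls take the FPKM as deposited, uncentred, with a median log2 response of -0.0046 in RasV12 and -0.37 in WT cells. Of the 150 genes with the higher response in RasV12 cells, 54 rose in RasV12 cells, 140 fell in WT cells and 44 did both. In 112 of the 150 the centred responses had opposite signs. Of the 111 genes with the lower response in RasV12 cells, 37 fell in RasV12 cells, 78 rose in WT cells and 12 did both. The centred responses had opposite signs in 72 of these 111. The response of larger size was that of WT cells in 104 of the 150 and in 85 of the 111, beside 5593 of all 10431 genes. Since the calls of the difference were made from the same responses, these counts describe the called genes and are no further test.

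Genes that YAP and TEAD are known to switch on held the largest positive difference of all called genes. Amotl2, an angiomotin family protein that binds YAP and is itself induced by it, was at 26.6 FPKM in RasV12 CBD, 8.08 in RasV12 DMSO, 3.24 in WT CBD and 22.8 in WT DMSO cells. CBD thus raised it in RasV12 cells and lowered it in WT cells, and RasV12 CBD cells had the highest level and WT CBD cells the lowest. The difference of the responses was 3.72, SE 0.50, adjusted p 3.93e-10. Ccn1, a secreted matrix protein and a widely used readout of YAP, was at 138 FPKM in RasV12 CBD, 25.4 in RasV12 DMSO, 28.8 in WT CBD and 52.4 in WT DMSO cells. It rose in RasV12 cells and fell in WT cells, and the level in RasV12 CBD cells was above that of each of the other groups (difference 2.87, SE 0.63, adjusted p 0.000846). Thbs1, thrombospondin, was at 241 FPKM with CBD and 234 with DMSO in RasV12 cells, against 92.3 with CBD and 338 with DMSO in WT cells. Its levels with CBD and DMSO were close in RasV12 cells, and it fell in WT cells (difference 1.54, SE 0.37, adjusted p 0.00366). Of 19 genes of the YAP and SRF list that were tested, these 3 were called higher, beside 1.44% of all tested genes, and none lower, and the median of the list was 0.03 beside -0.05 over all genes. The other members were not called and lay on either side of 0, down to -1.17. Among these was Ccn2, another widely used readout of YAP, which fell in both lines (50.4 FPKM in RasV12 CBD, 169 in RasV12 DMSO, 12.6 in WT CBD and 34.5 in WT DMSO cells, difference -0.71 (SE 0.49)). With a pseudocount of 0.1, a minimum of 5 FPKM or the SE by level, 1 member of the list was called lower.

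The promoters of Amotl2 and Ccn1 both hold the TEAD motif GGAATG, read here on the other strand as CATTCC. They are shown because these 2 genes had the largest differences of the YAP list, with the motif in capitals, from RefSeq on the GRCm38.p6 build. Each window runs from 250 bases before to 50 bases after the start of the gene, on the strand of the gene. The Amotl2 window is chr9:102717554-102717853 on the plus strand and the Ccn1 window chr3:145649936-145650235 on the minus strand. The motif begins 65 bases before the start of Amotl2 and 103 bases before that of Ccn1.
Amotl2: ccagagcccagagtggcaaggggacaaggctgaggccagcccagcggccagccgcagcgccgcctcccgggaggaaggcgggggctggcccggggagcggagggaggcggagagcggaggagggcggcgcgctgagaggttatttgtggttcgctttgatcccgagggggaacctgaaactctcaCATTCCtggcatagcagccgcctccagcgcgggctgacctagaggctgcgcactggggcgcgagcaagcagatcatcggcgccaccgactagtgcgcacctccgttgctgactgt
Ccn1: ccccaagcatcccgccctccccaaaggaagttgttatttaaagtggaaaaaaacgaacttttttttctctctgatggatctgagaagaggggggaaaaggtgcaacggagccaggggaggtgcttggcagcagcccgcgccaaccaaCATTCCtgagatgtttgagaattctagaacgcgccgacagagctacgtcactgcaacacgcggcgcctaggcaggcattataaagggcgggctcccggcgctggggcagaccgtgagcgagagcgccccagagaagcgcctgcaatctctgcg
The motif, on either strand, was in 16 of 110 promoters (14.5%) of genes with a higher response in RasV12 cells, in 10 of 76 (13.2%) of those with a lower response and in 945 of 8315 (11.4%) of all tested genes with a promoter in the table, counting 1 promoter per gene. The match is a description of the letters and not of a binding site in use.

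**Figure D2:**
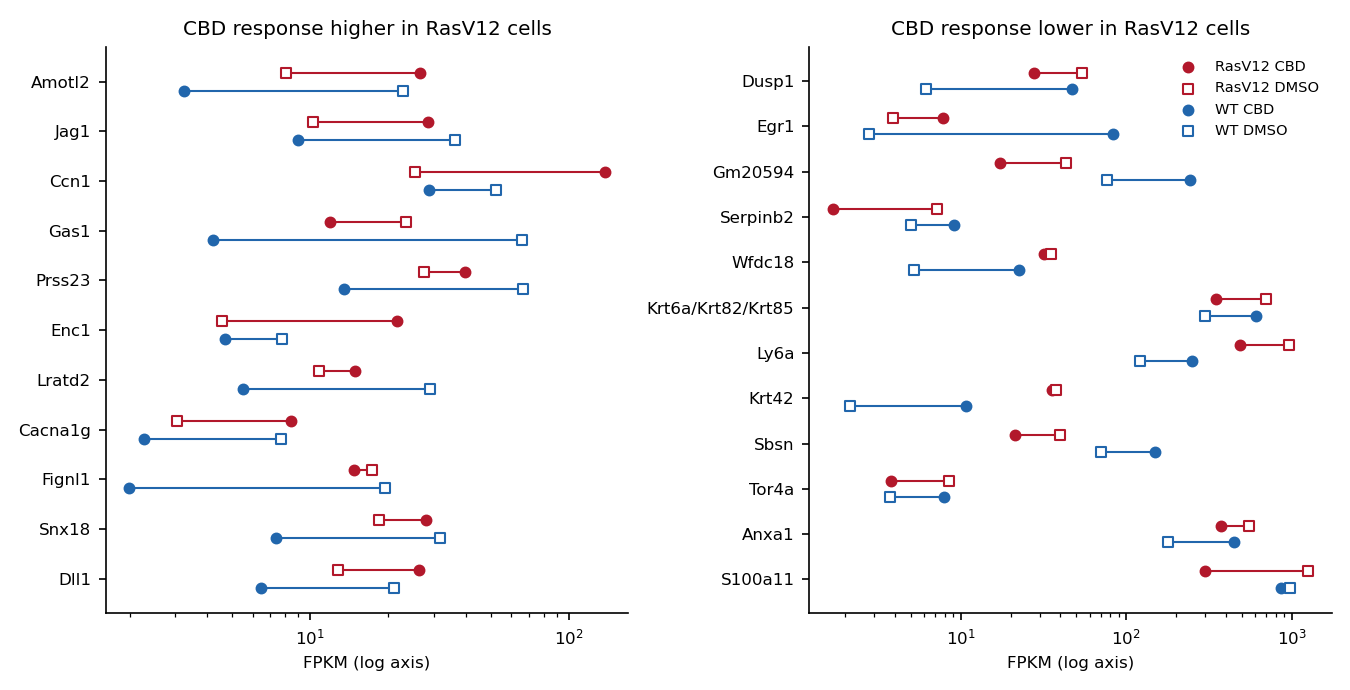
FPKM (log axis) of 11 of the 12 genes with the largest positive difference (left) and the 12 with the most negative difference (right), among called genes at 5 FPKM or more in each line. Filled circles are CBD and open squares DMSO, red is RasV12 and blue WT, and each line joins the 2 treatments of 1 cell line. On the left the blue lines run down from DMSO to CBD in all 11 genes. On the right the blue lines run up in 11 of 12, S100a11 being the exception.

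Jag1 and Dll1, 2 of the Notch ligands, rose with CBD in RasV12 cells and fell in WT cells, and another ligand, Jag2, did not pass the test of the difference. Jag1, a ligand that signals to Notch receptors on neighbouring cells, was at 28.5 FPKM in RasV12 CBD, 10.2 in RasV12 DMSO, 8.93 in WT CBD and 36.2 in WT DMSO cells. It rose with CBD in RasV12 cells and fell in WT cells, and the order of the 2 lines under DMSO was reversed under CBD (difference 2.93, SE 0.41, adjusted p 3.82e-09). Dll1, another ligand, was at 26.4 FPKM with CBD and 12.8 with DMSO in RasV12 cells, against 6.47 with CBD and 21.03 with DMSO in WT cells and likewise rose in RasV12 cells and fell in WT cells (difference 2.18, SE 0.38, adjusted p 3.39e-06). Rbpj, the DNA-binding factor through which Notch acts on its targets, was at 24.3 FPKM with CBD and 15.3 with DMSO in RasV12 cells, against 9.04 with CBD and 17.7 with DMSO in WT cells. It too rose in RasV12 cells and fell in WT cells (difference 1.17, SE 0.35, adjusted p 0.0437). Of 20 Notch genes tested, these 3 were called higher, beside 1.44% of all tested genes, and none lower, with a list median of 0.23. The ligand Jag2 was not called (33.02 FPKM with CBD and 42.5 with DMSO in RasV12 cells, against 11.2 with CBD and 35.5 with DMSO in WT cells, difference 0.87 (SE 0.34)). The receptors fell in both lines, Notch1 being at 8.97 FPKM in RasV12 CBD, 22.5 in RasV12 DMSO, 3.65 in WT CBD and 25.4 in WT DMSO cells and Notch2 at 1.17 FPKM in RasV12 CBD, 9.62 in RasV12 DMSO, 0.987 in WT CBD and 14.3 in WT DMSO cells, and their differences of 0.91 (SE 0.43) and 0.29 (SE 0.67) did not pass. Hes1, a direct Notch target, rose in both lines (52.4 FPKM in RasV12 CBD, 31.7 in RasV12 DMSO, 44.8 in WT CBD and 27.3 in WT DMSO cells), with a difference of -0.35 (SE 0.37) that was not called either. Rbpj was no longer called when responses were centred within 10 bins of transcript length (adjusted p 0.145).

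Ligands and feedback genes of the BMP and TGF-beta families were a further group. Inhba, which encodes the subunit of activin A, was at 24.5 FPKM in RasV12 CBD, 6.92 in RasV12 DMSO, 20.4 in WT CBD and 35.8 in WT DMSO cells, rising in RasV12 cells and falling in WT cells (difference 2.10, SE 0.48, adjusted p 0.00149). Bmp2 was at 11.1 FPKM with CBD and 8.05 with DMSO in RasV12 cells, against 1.58 with CBD and 9.69 with DMSO in WT cells. It fell in WT cells and did not pass in RasV12 cells, and WT CBD cells stood far below the other 3 groups (difference 2.10, SE 0.38, adjusted p 9.12e-06). Skil, a repressor of Smad proteins that TGF-beta induces, was at 9.81 FPKM with CBD and 6.72 with DMSO in RasV12 cells, against 1.88 with CBD and 5.86 with DMSO in WT cells (difference 1.37, SE 0.37, adjusted p 0.0126). Of 32 genes tested, 4 were called higher, these 3 among them, beside 1.44% of all tested genes, and none lower, and the list median was 0.32. The inhibitor Smad7 (12.1 FPKM in RasV12 CBD, 2.98 in RasV12 DMSO, 3.01 in WT CBD and 2.53 in WT DMSO cells) rose in RasV12 cells, and its difference of 1.17 (SE 0.48) was not called. The receptor Tgfbr2 (1.49 FPKM in RasV12 CBD, 14.2 in RasV12 DMSO, 1.399 in WT CBD and 12.5 in WT DMSO cells) fell in both lines and the BMP-induced Id1 (111 FPKM in RasV12 CBD, 122 in RasV12 DMSO, 34.3 in WT CBD and 28.5 in WT DMSO cells) in neither, with differences of -0.49 (SE 0.71) and -0.77 (SE 0.38).

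In the Hedgehog pathway the co-receptor Gas1 was the member with a called difference. It was at 11.95 FPKM in RasV12 CBD, 23.5 in RasV12 DMSO, 4.21 in WT CBD and 65.9 in WT DMSO cells, so that CBD lowered it in both lines, by far more in WT cells (difference 2.40, SE 0.53, adjusted p 0.000899). WT cells had the higher level under DMSO and RasV12 cells the higher level under CBD. Of 23 pathway components tested, Gas1 was called higher and none lower, beside 1.44% and 1.06% of all tested genes, and the median was 0.23. Smo, the transducer at the cilium, was at 40.7 FPKM with CBD and 39.2 with DMSO in RasV12 cells, against 28.8 with CBD and 55.7 with DMSO in WT cells, and its difference of 0.62 (SE 0.34) was not called. Sufu, which holds the Gli factors back, fell in both lines (2.42 FPKM in RasV12 CBD, 10.6 in RasV12 DMSO, 1.503 in WT CBD and 11.1 in WT DMSO cells), with a difference of 0.14 (SE 0.54). Gli2 and Gli3 fell in both lines, Gli3 being at 5.02 FPKM in RasV12 CBD, 10.2 in RasV12 DMSO, 1.898 in WT CBD and 11.3 in WT DMSO cells, and their differences were -0.38 (SE 0.37) and 0.83 (SE 0.36). Of 8 Hedgehog target genes tested, none was called in either direction, and the differences ran from -0.61 (Osr2) to 0.47 (Ptch1), with a median of 0.21. Ptch1, the receptor that the pathway induces, was low at 1.12 FPKM in RasV12 CBD, 0.771 in RasV12 DMSO, 0.409 in WT CBD and 1.104 in WT DMSO cells. Gli1 was below 1 FPKM in RasV12 cells, at 0.630 FPKM with CBD and 0.953 with DMSO, against 0.682 with CBD and 2.73 with DMSO in WT cells, and so was no member. Of 67 genes of cilium assembly and transport, 1 was called higher and none lower, beside 1.44% and 1.06% of all tested genes. The list median was 0.00, close to the -0.05 of all genes. The called gene was Fbf1, a protein of the transition fibres at the base of the cilium (17.98 FPKM with CBD and 19.3 with DMSO in RasV12 cells, against 4.68 with CBD and 15.9 with DMSO in WT cells, difference 1.11, SE 0.34, adjusted p 0.048), which was not called with centring by transcript length (adjusted p 0.16). Kif3a, a subunit of the ciliary kinesin motor, Ift88, a transport protein, and Arl13b, a ciliary GTPase, had differences of -0.59 (SE 0.35), -0.08 (SE 0.37) and -0.79 (SE 0.38), none of them called.

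Called differences among genes that license and start DNA replication were those of Cdt1, Cdc6, Mcm3 and Mcm2. Of 36 G1/S and replication genes tested, 4 were called higher, beside 1.44% of all tested genes, and none lower, 32 had a difference above 0, and the median was 0.57 beside -0.05 for all genes. Cdt1, a licensing factor that loads the MCM helicase, was at 43.8 FPKM in RasV12 CBD, 20.4 in RasV12 DMSO, 12.3 in WT CBD and 28.3 in WT DMSO cells. It rose in RasV12 cells and fell in WT cells (difference 1.85, SE 0.36, adjusted p 6.22e-05). Its partner Cdc6 was at 3.69 FPKM with CBD and 2.79 with DMSO in RasV12 cells, against 1.38 with CBD and 7.64 with DMSO in WT cells, falling in WT cells and not passing in RasV12 cells (difference 1.81, SE 0.36, adjusted p 0.000132). Mcm3 and Mcm2 are subunits of the helicase. Mcm3 was at 34.2 FPKM with CBD and 27.6 with DMSO in RasV12 cells, against 15.1 with CBD and 41.2 with DMSO in WT cells (difference 1.32, SE 0.35, adjusted p 0.0126). Mcm2 was at 44.1 FPKM with CBD and 28.3 with DMSO in RasV12 cells, against 26.4 with CBD and 50.4 with DMSO in WT cells (difference 1.16, SE 0.35, adjusted p 0.0406), and it was not called with centring by transcript length (adjusted p 0.0653). The other helicase subunits were not called, with differences of 0.73 for Mcm4, 1.01 for Mcm5, 0.77 for Mcm6 and 0.50 for Mcm7. Within the lines, 6 of the 36 rose and 8 fell in RasV12 cells, beside 19.3% and 24.8% of all tested genes. In WT cells none rose and 26 fell, beside 13.9% and 42.7% of all tested genes. These within-line calls take the uncentred FPKM. Of 38 G2/M and mitosis genes none was called, and their median was 0.28. The proliferation marker Mki67 (15.9 FPKM in RasV12 CBD, 27.01 in RasV12 DMSO, 4.44 in WT CBD and 18.97 in WT DMSO cells) and the mitotic cyclin Ccnb1 (27.2 FPKM in RasV12 CBD, 77.9 in RasV12 DMSO, 7.04 in WT CBD and 43.9 in WT DMSO cells) fell in both lines, with differences of 0.78 (SE 0.34) and 0.63 (SE 0.48).

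The rest of the largest positive differences belonged to genes of varied function. Prss23, a secreted serine protease, was at 39.8 FPKM in RasV12 CBD, 27.5 in RasV12 DMSO, 13.6 in WT CBD and 66.5 in WT DMSO cells (difference 2.37, SE 0.38, adjusted p 4.61e-07). Enc1, a kelch family protein that binds actin, was at 21.6 FPKM with CBD and 4.58 with DMSO in RasV12 cells, against 4.66 with CBD and 7.77 with DMSO in WT cells, with RasV12 CBD cells above the other groups (difference 2.29, SE 0.55, adjusted p 0.00286). Lratd2 was at 14.9 FPKM in RasV12 CBD, 10.8 in RasV12 DMSO, 5.49 in WT CBD and 28.97 in WT DMSO cells. It fell in WT cells with CBD and did not pass in RasV12 cells (difference 2.28, SE 0.41, adjusted p 9.87e-06). Cacna1g, a T-type calcium channel subunit, rose in RasV12 cells and fell in WT cells, at 8.39 FPKM in RasV12 CBD, 3.05 in RasV12 DMSO, 2.28 in WT CBD and 7.68 in WT DMSO cells (difference 2.26, SE 0.36, adjusted p 5.83e-07). Fignl1, an ATPase of DNA repair, was at 14.8 FPKM in RasV12 CBD, 17.3 in RasV12 DMSO, 1.996 in WT CBD and 19.5 in WT DMSO cells and Snx18, a sorting nexin of endocytosis, at 28.1 FPKM in RasV12 CBD, 18.5 in RasV12 DMSO, 7.36 in WT CBD and 31.9 in WT DMSO cells, both falling in WT cells and passing in neither direction in RasV12 cells (differences 2.20 (SE 0.44) and 2.19 (SE 0.36)). Of the 11 genes named for the largest positive differences, 11 fell in WT cells and 6 rose in RasV12 cells, beside 42.7% and 19.3% of all tested genes. Since these genes were picked by the difference of the same responses, the counts follow in large part from that choice. Of the genes called in opposite directions in the 2 lines, Dlc1, a GTPase-activating protein, was at 18.7 FPKM in RasV12 CBD, 10.3 in RasV12 DMSO, 6.57 in WT CBD and 21.6 in WT DMSO cells (difference 2.02, SE 0.34, adjusted p 2.07e-06), and Prag1, a pseudokinase, at 12.4 FPKM in RasV12 CBD, 6.32 in RasV12 DMSO, 2.02 in WT CBD and 6.18 in WT DMSO cells (difference 1.75, SE 0.36, adjusted p 0.000245).

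Matrix, receptor and signalling genes added called members on the higher side. Of 21 mesenchymal and matrix genes tested, 3 were called higher, Thbs1 and Col4a2 among them, beside 1.44% of all tested genes, and none lower, and the median was 0.54. Col4a2, a chain of basement membrane collagen, was at 201 FPKM in RasV12 CBD, 80.6 in RasV12 DMSO, 73.8 in WT CBD and 106 in WT DMSO cells (difference 1.46, SE 0.39, adjusted p 0.0122). Its partner chain Col4a1 (189 FPKM in RasV12 CBD, 73.02 in RasV12 DMSO, 101 in WT CBD and 106 in WT DMSO cells) and fibronectin, Fn1 (399.5 FPKM in RasV12 CBD, 60.8 in RasV12 DMSO, 356 in WT CBD and 151 in WT DMSO cells), rose in RasV12 cells, but their differences of 1.06 (SE 0.40) and 1.10 (SE 0.73) did not pass. Of 24 genes of PI3 kinase, Akt and Foxo signalling, 3 were called higher, beside 1.44% of all tested genes, and none lower, with a median of 0.37. They were Pik3r2, a regulatory subunit of the kinase (50.9 FPKM with CBD and 59.7 with DMSO in RasV12 cells, against 19.2 with CBD and 81.6 with DMSO in WT cells, difference 1.44, SE 0.37, adjusted p 0.00666), Irs1, an adaptor of the insulin receptor (4.197 FPKM with CBD and 3.63 with DMSO in RasV12 cells, against 1.56 with CBD and 6.801 with DMSO in WT cells, difference 1.41, SE 0.32, adjusted p 0.00157), and Foxo1, a transcription factor that Akt restrains (19.4 FPKM with CBD and 7.97 with DMSO in RasV12 cells, against 6.003 with CBD and 7.99 with DMSO in WT cells, difference 1.18, SE 0.36, adjusted p 0.0475). Foxo1 rose in RasV12 cells, while Pik3r2 and Irs1 fell in WT cells. Of 25 transcription elongation genes, 2 were called higher, beside 1.44% of all tested genes, and none lower, with a median of 0.17. They were Cdk13, a kinase that phosphorylates RNA polymerase II, and Polr2a, the largest subunit of that enzyme (differences 1.32 (SE 0.38) and 1.28 (SE 0.34)). Polr2a was at 84.1 FPKM in RasV12 CBD, 46.3 in RasV12 DMSO, 30.3 in WT CBD and 53.6 in WT DMSO cells, rising in RasV12 cells and falling in WT cells.

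Other lists had 1 or 2 members called higher, beside 1.44% of all tested genes. Of 13 NF-kB feedback genes, Tnfaip3, an enzyme that damps NF-kB, was at 11.9 FPKM in RasV12 CBD, 3.72 in RasV12 DMSO, 1.405 in WT CBD and 1.96 in WT DMSO cells and Rel, a subunit of NF-kB, at 9.79 FPKM in RasV12 CBD, 6.501 in RasV12 DMSO, 2.88 in WT CBD and 7.898 in WT DMSO cells (differences 1.39 (SE 0.42) and 1.36 (SE 0.39)). The median of this list was -0.05, and 5 of the 13 had a difference above 0. Of 14 hair follicle progenitor genes, the transcription factors Msx2 (2.56 FPKM in RasV12 CBD, 0.672 in RasV12 DMSO, 0.965 in WT CBD and 2.201 in WT DMSO cells) and Sox11 (18.03 FPKM in RasV12 CBD, 14.5 in RasV12 DMSO, 5.67 in WT CBD and 14.1 in WT DMSO cells) were called (differences 1.43 (SE 0.43) and 1.11 (SE 0.33)). That list had a median of 0.17, with 8 of the 14 above 0. Mcl1, an inhibitor of apoptosis, fell in WT cells and not in RasV12 cells, at 51.9 FPKM in RasV12 CBD, 51.8 in RasV12 DMSO, 15.004 in WT CBD and 46.7 in WT DMSO cells (difference 1.21, SE 0.35, adjusted p 0.0295). Lrp6, a Wnt co-receptor, was at 9.46 FPKM with CBD and 10.3 with DMSO in RasV12 cells, against 2.77 with CBD and 14.6 with DMSO in WT cells (difference 1.57, SE 0.35, adjusted p 0.00094). Pmvk, an enzyme of cholesterol synthesis, was called lower (22.1 FPKM with CBD and 20.7 with DMSO in RasV12 cells, against 28.4 with CBD and 13.2 with DMSO in WT cells, difference -1.33, SE 0.41, adjusted p 0.0447).

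On the lower side, immediate early genes held the most negative difference of all called genes and more called members than any other list. Dusp1, the phosphatase that switches MAP kinases off, was at 27.6 FPKM in RasV12 CBD, 54.1 in RasV12 DMSO, 46.8 in WT CBD and 6.19 in WT DMSO cells. It fell with CBD in RasV12 cells and rose in WT cells, and RasV12 cells had the higher level under DMSO and WT cells under CBD. The difference was -4.04, SE 0.44, adjusted p 3.97e-16. Egr1, a transcription factor that is the classic readout of ERK and SRF, was at 7.79 FPKM in RasV12 CBD, 3.904 in RasV12 DMSO, 82.95 in WT CBD and 2.804 in WT DMSO cells. It rose in both lines, and the level in WT CBD cells stood far above those of the other 3 groups (difference -3.99, SE 0.62, adjusted p 3.25e-07). Atf3, a stress-induced factor, was at 9.47 FPKM with CBD and 9.82 with DMSO in RasV12 cells, against 9.03 with CBD and 2.36 with DMSO in WT cells, nearly the same in both treatments of RasV12 cells and higher with CBD in WT cells (difference -1.99, SE 0.41, adjusted p 0.000241). Ier2, a nuclear early response protein, was at 57.3 FPKM in RasV12 CBD, 27.7 in RasV12 DMSO, 102 in WT CBD and 19.8 in WT DMSO cells and rose in both lines (difference -1.65, SE 0.41, adjusted p 0.00464). Jund, a subunit of AP-1, was at 195 FPKM in RasV12 CBD, 148 in RasV12 DMSO, 327 in WT CBD and 108 in WT DMSO cells (difference -1.57, SE 0.34, adjusted p 0.000743). Klf6, a zinc finger factor, was at 65.01 FPKM in RasV12 CBD, 63.003 in RasV12 DMSO, 45.9 in WT CBD and 26.6 in WT DMSO cells (difference -1.09, SE 0.33, adjusted p 0.0444).

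Other early genes stood on the other side or did not pass. Fosl2, a Fos family subunit of AP-1, was at 56.05 FPKM with CBD and 54.6 with DMSO in RasV12 cells, against 13.95 with CBD and 68.7 with DMSO in WT cells, falling in WT cells with little change of level in RasV12 cells (difference 1.89, SE 0.38, adjusted p 0.000137). Myc was at 29.4 FPKM in RasV12 CBD, 23.1 in RasV12 DMSO, 13.7 in WT CBD and 36.5 in WT DMSO cells and was also called higher (difference 1.32, SE 0.40, adjusted p 0.0462). Fos rose in both lines, at 17.1 FPKM with CBD and 1.62 with DMSO in RasV12 cells, against 23.9 with CBD and 0.278 with DMSO in WT cells, but its difference of -1.87 (SE 0.86) was not called (adjusted p 0.324). The p-value of Fos in RasV12 cells was the lowest that table held, so that its SE is an upper bound. With the median SE of genes of like level used in both lines and for every gene, the adjusted p was 0.00319. Junb, Jun and Ier5 had differences of -0.61, -0.75 and 0.15, none of them called. In all, 2 of 25 immediate early genes were called higher and 6 lower, beside 1.44% and 1.06% of all tested genes, with a median of -0.51. With centring by transcript length the counts were the same, 2 and 6.

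The Dusp1 promoter is shown because the gene had the most negative difference of all called genes and its window holds the cyclic AMP response element TGACGTCA, here in capitals. This motif and the heat shock element below were added to the search after the called genes were known. The window is chr17:26508423-26508722 on the minus strand, from RefSeq on GRCm38.p6, and the motif begins 143 bases before the start of the gene.
Dusp1: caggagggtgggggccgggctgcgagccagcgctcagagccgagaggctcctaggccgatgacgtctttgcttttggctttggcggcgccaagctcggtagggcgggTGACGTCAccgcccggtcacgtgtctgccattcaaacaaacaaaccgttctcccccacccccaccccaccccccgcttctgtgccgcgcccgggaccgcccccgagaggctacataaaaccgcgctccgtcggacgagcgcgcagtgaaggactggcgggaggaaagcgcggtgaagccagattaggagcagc
TGACGTCA was in 1 of 76 promoters (1.32%) of genes with a lower response, that of Dusp1, in 3 of 110 (2.73%) of genes with a higher response and in 296 of 8315 (3.56%) of all. The AP-1 motif TGACTCA was in 6 of the 76 (7.89%), 1 of the 110 (0.909%) and 269 (3.24%) of all promoters. The E-box CACGTG was in 10.5%, 10% and 10.9%, the cell cycle element TTTGAA in 22.4%, 10.9% and 11.5%, and the CArG box, which SRF binds, in 1.32%, 0.909% and 1.25% of the same sets. Both strands were searched, motifs may overlap, and 1 promoter per gene was used. These shares were not tested.

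Heat shock genes were called on the lower side alone. Of 18 tested, 5 were called lower and none higher, beside 1.06% of all tested genes called lower, 16 had a difference below 0, and the median was -0.36. The median of the list was 0.0021 without centring and -0.06 with equal FPKM sums, where 4 were called lower and the medians of all genes were 0.32 and 0.23. Hspa1a, an inducible Hsp70 chaperone, was at 2.66 FPKM in RasV12 CBD, 2.901 in RasV12 DMSO, 26.6 in WT CBD and 2.31 in WT DMSO cells, so that WT CBD cells alone stood apart (difference -3.51, SE 0.48, adjusted p 9.32e-10). Hspa1b, its near-identical copy, was at 34.6 FPKM in RasV12 CBD, 67.9 in RasV12 DMSO, 89.8 in WT CBD and 55.3 in WT DMSO cells, falling in RasV12 cells and rising in WT cells (difference -2.01, SE 0.35, adjusted p 4.97e-06). Reads of the 2 copies could have been split between them, and their summed level was 37.3 FPKM in RasV12 CBD, 70.8 in RasV12 DMSO, 116 in WT CBD and 57.6 in WT DMSO cells. Hspb1, a small heat shock protein, was at 1767 FPKM in RasV12 CBD, 1561 in RasV12 DMSO, 3149.8 in WT CBD and 976 in WT DMSO cells, rising in WT cells and not passing in RasV12 cells (difference -1.88, SE 0.36, adjusted p 6.22e-05). Hsp90aa1, the inducible Hsp90, was at 146 FPKM with CBD and 190.2 with DMSO in RasV12 cells, against 248 with CBD and 135 with DMSO in WT cells (difference -1.61, SE 0.35, adjusted p 0.000602). Hspb8, another small heat shock protein, was at 88.9 FPKM with CBD and 141 with DMSO in RasV12 cells, against 97.4 with CBD and 86.5 with DMSO in WT cells, falling in RasV12 cells (difference -1.20, SE 0.34, adjusted p 0.0238). The constitutive chaperones Hspa8 (1431 FPKM in RasV12 CBD, 669 in RasV12 DMSO, 1414 in WT CBD and 795 in WT DMSO cells) and Hsp90ab1 (2505 FPKM in RasV12 CBD, 1055 in RasV12 DMSO, 2469 in WT CBD and 1249 in WT DMSO cells) rose in both lines, and their differences of -0.10 (SE 0.37) and -0.10 (SE 0.43) were not called. Dnajb1, a co-chaperone, fell in both lines, and its difference of -1.12 (SE 0.41) was not called.

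The Hspa1a promoter is shown because this gene had the most negative difference among the heat shock genes. Its window is chr17:34972107-34972406 on the minus strand, from RefSeq on GRCm38.p6, and it differs from that of Hspa1b in 4 of 300 bases. The heat shock element, taken as GAANNTTC, is in capitals and begins 104 bases before the start of the gene.
Hspa1a: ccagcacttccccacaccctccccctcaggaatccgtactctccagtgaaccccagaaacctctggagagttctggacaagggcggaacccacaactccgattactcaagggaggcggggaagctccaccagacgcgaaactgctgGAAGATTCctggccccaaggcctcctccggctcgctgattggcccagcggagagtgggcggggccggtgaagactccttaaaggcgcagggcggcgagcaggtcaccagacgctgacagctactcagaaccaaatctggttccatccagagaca
GAANNTTC was in 9 of 76 promoters (11.8%) of genes with a lower response in RasV12 cells, in 8 of 110 (7.27%) of genes with a higher response and in 452 of 8315 (5.44%) of all.

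The 12 most negative differences also held a keratin locus, Krt42 and Sbsn. The locus listed as Krt6a, Krt82 and Krt85 together, of which Krt6a is a keratin of activated keratinocytes, was at 349 FPKM in RasV12 CBD, 696 in RasV12 DMSO, 605 in WT CBD and 297 in WT DMSO cells. It fell with CBD in RasV12 cells and rose in WT cells (difference -2.39, SE 0.38, adjusted p 4.61e-07), and its level cannot be assigned to 1 of the 3 genes. Krt42 was at 35.5 FPKM in RasV12 CBD, 37.4 in RasV12 DMSO, 10.7 in WT CBD and 2.15 in WT DMSO cells (difference -2.34, SE 0.41, adjusted p 5.06e-06), and Krt17, a keratin of activated and tumour keratinocytes, at 4611 FPKM in RasV12 CBD, 5902 in RasV12 DMSO, 5701 in WT CBD and 2744 in WT DMSO cells (difference -1.78, SE 0.45, adjusted p 0.0069). Both rose in WT cells and did not pass in RasV12 cells, and reads of such similar keratins could have been split between genes. The basal keratins themselves were not called, Krt14 having a difference of -0.40 (SE 0.44) and Krt5 one of -0.45 (SE 0.47). Of 24 basal keratinocyte genes, Krt17 was called lower and Sfn, a 14-3-3 protein of stratified epithelia, higher (192 FPKM with CBD and 228 with DMSO in RasV12 cells, against 67.9 with CBD and 239.97 with DMSO in WT cells, difference 1.19, SE 0.35, adjusted p 0.0341). Over all tested genes, 1.06% were called lower and 1.44% higher. Of 11 differentiation genes, Sbsn, a secreted protein of the upper epidermis, was called lower (21.3 FPKM in RasV12 CBD, 39.6 in RasV12 DMSO, 148 in WT CBD and 70.002 in WT DMSO cells, difference -2.30, SE 0.46, adjusted p 0.000147), and 9 of the 11 had a difference below 0, with a median of -0.79. This median was -0.49 with centring by transcript length and -0.43 without centring, where the medians of all genes were -0.02 and 0.32.

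Further genes with a lower response in RasV12 cells lie outside these lists. Ly6a, the surface protein Sca-1, was at 488 FPKM in RasV12 CBD, 956 in RasV12 DMSO, 249 in WT CBD and 122 in WT DMSO cells, falling in RasV12 cells and rising in WT cells (difference -2.36, SE 0.39, adjusted p 1.25e-06). Serpinb2, an inhibitor of plasminogen activator, was at 1.68 FPKM in RasV12 CBD, 7.22 in RasV12 DMSO, 9.12 in WT CBD and 5.03 in WT DMSO cells and moved the same way (difference -2.73, SE 0.49, adjusted p 9.4e-06). Anxa1, an annexin, was at 374 FPKM with CBD and 555 with DMSO in RasV12 cells, against 448 with CBD and 178 with DMSO in WT cells, rising in WT cells (difference -2.26, SE 0.36, adjusted p 4.61e-07). Wfdc18 was at 31.6 FPKM with CBD and 35.3 with DMSO in RasV12 cells, against 22.5 with CBD and 5.19 with DMSO in WT cells and Tor4a, a torsin family ATPase, at 3.77 FPKM with CBD and 8.49 with DMSO in RasV12 cells, against 7.92 with CBD and 3.74 with DMSO in WT cells (differences -2.45 (SE 0.51) and -2.27 (SE 0.38)). S100a11, a calcium-binding protein, fell in RasV12 cells and not in WT cells, at 299.97 FPKM in RasV12 CBD, 1257 in RasV12 DMSO, 856 in WT CBD and 977 in WT DMSO cells (difference -2.24, SE 0.55, adjusted p 0.00484). Gm20594 was at 17.2 FPKM in RasV12 CBD, 43.3 in RasV12 DMSO, 244 in WT CBD and 76.5 in WT DMSO cells (difference -3.31, SE 0.53, adjusted p 4.61e-07). Mt1, a metallothionein, was at 2412 FPKM in RasV12 CBD, 4987 in RasV12 DMSO, 1760.4 in WT CBD and 1103 in WT DMSO cells, falling in RasV12 cells and rising in WT cells (difference -2.09, SE 0.37, adjusted p 5.52e-06).

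Lower calls also came from stress and RNA genes. Malat1, a nuclear long noncoding RNA, rose in both lines and by more in WT cells, at 345 FPKM in RasV12 CBD, 122 in RasV12 DMSO, 634 in WT CBD and 72.7 in WT DMSO cells (difference -1.98, SE 0.53, adjusted p 0.0123). All 17 nuclear and small nucleolar RNA host transcripts tested had a difference below 0, with a median of -0.78. Malat1 was the called one, beside 1.06% of all tested genes called lower. Rmrp, the RNA of the RNase MRP enzyme, had a difference of -2.002 (SE 0.66) that did not pass (adjusted p 0.0753). Gsta4, a glutathione transferase, was at 53.2 FPKM in RasV12 CBD, 54.6 in RasV12 DMSO, 30.8 in WT CBD and 8.73 in WT DMSO cells (difference -2.11, SE 0.40, adjusted p 3.11e-05), Ndrg1, a gene induced by hypoxia, at 71.4 FPKM in RasV12 CBD, 53.2 in RasV12 DMSO, 28.9 in WT CBD and 11.8 in WT DMSO cells (difference -1.17, SE 0.35, adjusted p 0.0373), and Cldn4, a tight junction protein, at 23.9 FPKM in RasV12 CBD, 21.5 in RasV12 DMSO, 9.78 in WT CBD and 2.83 in WT DMSO cells (difference -1.71, SE 0.39, adjusted p 0.00129). Slc3a2, an amino acid transporter chain that stress signalling induces, was at 213 FPKM with CBD and 247 with DMSO in RasV12 cells, against 133 with CBD and 82.999 with DMSO in WT cells (difference -1.26, SE 0.34, adjusted p 0.0128). None of 39 ribosomal protein genes and none of 41 nuclear genes of oxidative phosphorylation was called, yet 38 of each had a difference below 0 and the medians were -0.35 and -0.35. With centring by transcript length these medians were -0.02 and -0.10. Without centring they were 0.02 and 0.01, and with equal FPKM sums -0.05 and -0.06, so that the side of 0 rests on the scaling. The median of all genes was 0.32 without centring, 0.23 with equal FPKM sums and -0.05 in the main setting.

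Of 31 components of the Ras and MAP kinase pathway tested none was called, with a median of -0.05, and without centring or with equal FPKM sums 2 were called higher. The differences of largest size in that list were those of Met (1.00, SE 0.41) and Gab1 (0.92, SE 0.37). Hras was at 94.4 FPKM in RasV12 CBD, 60.2 in RasV12 DMSO, 74.98 in WT CBD and 59.9 in WT DMSO cells with a difference of -0.05 (SE 0.36) and Nras at 30.4 FPKM in RasV12 CBD, 33.7 in RasV12 DMSO, 28.1 in WT CBD and 30.3 in WT DMSO cells with -0.41 (SE 0.33). Of 21 output genes, 2 were called higher and 1 lower, beside 1.44% and 1.06% of all tested genes, with a median of 0.35. Epha4 and Epha2 are receptor kinases for ephrins. Epha4 was at 8.04 FPKM with CBD and 7.94 with DMSO in RasV12 cells, against 2.496 with CBD and 13.8 with DMSO in WT cells (difference 1.73, SE 0.39, adjusted p 0.0011). Epha2 was at 36.9 FPKM with CBD and 24.9 with DMSO in RasV12 cells, against 6.99 with CBD and 17.2 with DMSO in WT cells (difference 1.37, SE 0.35, adjusted p 0.00856). The called gene on the lower side was Spry2, a feedback inhibitor of receptor kinases, at 4.78 FPKM in RasV12 CBD, 8.82 in RasV12 DMSO, 3.09 in WT CBD and 2.15 in WT DMSO cells, which fell in RasV12 cells (difference -1.51, SE 0.42, adjusted p 0.0201). Dusp6, Etv4 and Spry1, further feedback or output genes of ERK, rose in both lines, at 22.8 FPKM in RasV12 CBD, 12.5 in RasV12 DMSO, 9.57 in WT CBD and 4.48 in WT DMSO cells for Dusp6 and 35.9 FPKM in RasV12 CBD, 3.62 in RasV12 DMSO, 6.6995 in WT CBD and 1.22 in WT DMSO cells for Spry1. Their differences were -0.50 (SE 0.37), -0.61 (SE 0.40) and 0.84 (SE 0.78), none of them called.

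The remaining lists held 0 or 1 called member in each direction, beside 1.44% of all tested genes called higher and 1.06% called lower. Called once higher were the lists of Wnt genes (28 tested, median 0.13) and Bcl2 family genes (23, median -0.14). Called once lower were the integrated stress and unfolded protein response (31, median -0.19), glycolysis and hypoxia (27, median -0.31), NRF2 and glutathione (26, median -0.30) and keratins and simple epithelial genes (5, median -0.20). The cholesterol list (25, median -0.26) had 1 of each. No member was called among 18 core clock genes (median 0.32), 10 EGF receptor ligands and MAPK-induced cytokines (0.22), 26 p53 targets (0.0089), 22 Gadd45, Tob and deadenylation genes (-0.03), 7 aryl hydrocarbon receptor genes (0.04), 13 interferon response genes (-0.28), 31 proteasome subunits (-0.21) and 19 aminoacyl-tRNA synthetases (-0.06). In the deadenylation list the lowest difference was that of Zfp36, an RNA-binding protein that speeds mRNA decay (34.6 FPKM in RasV12 CBD, 10.2 in RasV12 DMSO, 48.1 in WT CBD and 6.87 in WT DMSO cells, difference -1.34 (SE 0.52)). Its SE is also an upper bound. Its adjusted p was 0.189, or 0.0199 with the median SE of genes of like level in both lines.

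**Figure D3:**
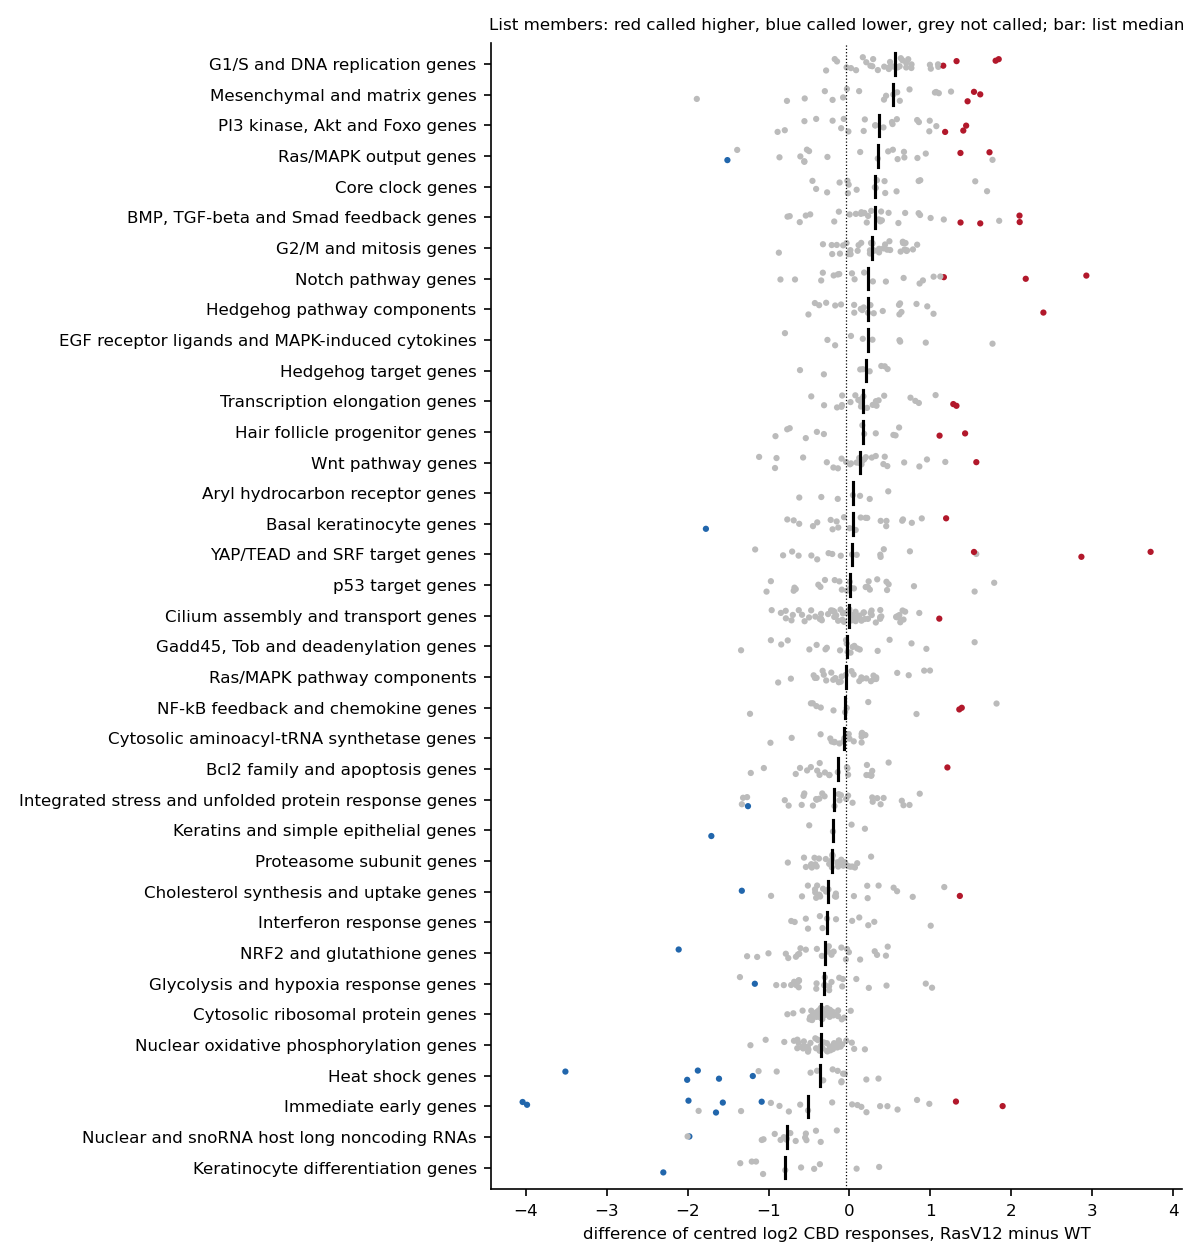
Difference of the centred log2 responses (RasV12 minus WT) of the tested members of each gene list with at least 5 of them, ordered by the median (black bar). Red members were called higher, blue lower and grey not, and the dotted line is the median of all genes. G1/S genes have the highest median (0.57) and keratinocyte differentiation genes the lowest (-0.79), and the heat shock and immediate early lists hold the most blue points.

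Several genes with large responses in both lines were not called in the test of the difference. Nr1d1, a repressor of the circadian clock, was at 746 FPKM in RasV12 CBD, 33.03 in RasV12 DMSO, 195 in WT CBD and 36.4 in WT DMSO cells, and its difference was 1.70 (SE 1.14). Hbegf, a ligand of the EGF receptor, was at 44.5 FPKM in RasV12 CBD, 1.49 in RasV12 DMSO, 13.95 in WT CBD and 2.59 in WT DMSO cells (difference 1.77 (SE 1.06)), and Gadd45a, a stress-induced growth arrest gene, at 67.6 FPKM in RasV12 CBD, 7.06 in RasV12 DMSO, 15.5 in WT CBD and 6.32 in WT DMSO cells (difference 1.55 (SE 0.82)). Ciart, another clock repressor, was at 67.8 FPKM in RasV12 CBD, 5.51 in RasV12 DMSO, 13.9 in WT CBD and 4.33 in WT DMSO cells (difference 1.56 (SE 0.88)), and Ddit3, a factor of the integrated stress response, at 184 FPKM in RasV12 CBD, 19.2 in RasV12 DMSO, 75.8 in WT CBD and 16.996 in WT DMSO cells (difference 0.74 (SE 1.02)). All 5 rose in both lines, by more in RasV12 cells in the estimate. For all of them but Ddit3 the p-value in RasV12 cells was the lowest that table held, so that its SE is an upper bound. In another setting the SE of both lines was replaced, for every gene, by the median SE of genes of like level. The adjusted p was then 0.000186 for Nr1d1, 0.00104 for Hbegf, 0.00471 for Gadd45a, 0.0068 for Ciart and 0.347 for Ddit3. Plk2, a kinase that p53 induces, rose in RasV12 cells, at 76.5 FPKM in RasV12 CBD, 16.1 in RasV12 DMSO, 24.9 in WT CBD and 24.5 in WT DMSO cells, with a difference of 1.79 (SE 0.59) and adjusted p values of 0.0733 and, by that other SE, 0.000133. An SE was such a bound for at least 1 line in 1788 of the 10431 genes, in 59 of the 150 and in 21 of the 111.

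The difference can also be read as the gap between the 2 lines under CBD minus the gap under DMSO, with each gap centred on its median. Of the 150 genes, the gap was the larger one under CBD in 105 and under DMSO in 45, and its median was 1.02 under CBD and -0.50 under DMSO. Of the 111 genes it was larger under CBD in 60 and under DMSO in 51, with medians of -0.91 and 0.58. Over all tested genes it was larger under CBD in 5932 of 10431. Among the 11 genes named for the largest positive differences, RasV12 cells stood above WT cells under CBD in 11 and under DMSO in 0. Among the 12 most negative, they stood above WT cells under CBD in 2 and under DMSO in 10. The called and named genes were picked by this same difference of gaps. Their counts and median gaps therefore follow in large part from that choice and are no further test. The gaps come from 2 separately made tables and were not tested.

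**Figure D4:**
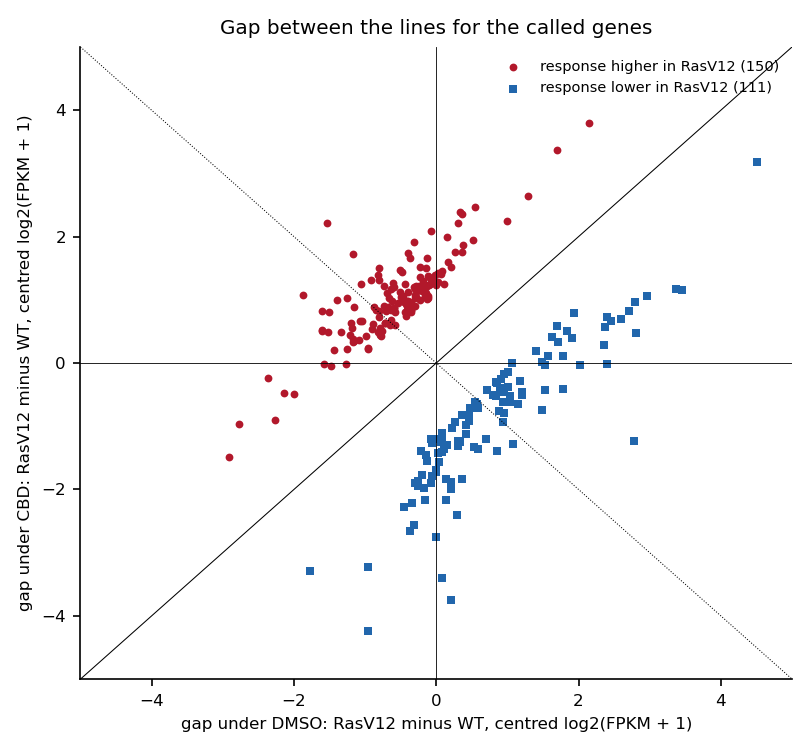
Gap between the lines (RasV12 minus WT, centred log2(FPKM + 1)) under CBD (vertical axis) against DMSO (horizontal axis) for the 150 genes with a higher (red circles) and the 111 with a lower response (blue squares) in RasV12 cells. The solid diagonal marks equal gaps and the dotted one gaps of equal size and opposite sign. Red points lie above the solid diagonal and blue ones below it by the choice of the genes, with median gaps of 1.02 under CBD and -0.50 under DMSO for red and of -0.91 and 0.58 for blue.

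Transcript length moved with the difference. Across 10298 genes with a length in the GENCODE annotation, the Spearman correlation of length was 0.33 with the difference, -0.33 with the response of RasV12 cells and -0.50 with that of WT cells. These are descriptions across genes that share the same libraries. In 10 bins of genes by length the median difference was -0.38 in the shortest and 0.21 in the longest. The shortest bin held 1 of the genes called higher and 21 of those called lower, and the longest bin 40 and 4. The median transcript was 5179 nt long in the 150 genes, 2384 nt in the 111 and 3379 nt in all. With responses centred within each bin, 102 genes were called higher and 97 lower, of which 98 and 85 were among the 150 and the 111. Of the 23 genes named for the largest differences, 22 were called in that setting too, and the other, the merged keratin locus, had no length. Besides Rbpj, Fbf1 and Mcm2, called list members that were not called in that setting included Hspb8, Sox11, Tnfaip3, Rel, Cdk13, Skil, Pmvk and Foxo1. Whether length itself has a part in any single difference was not tested.

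**Figure D5:**
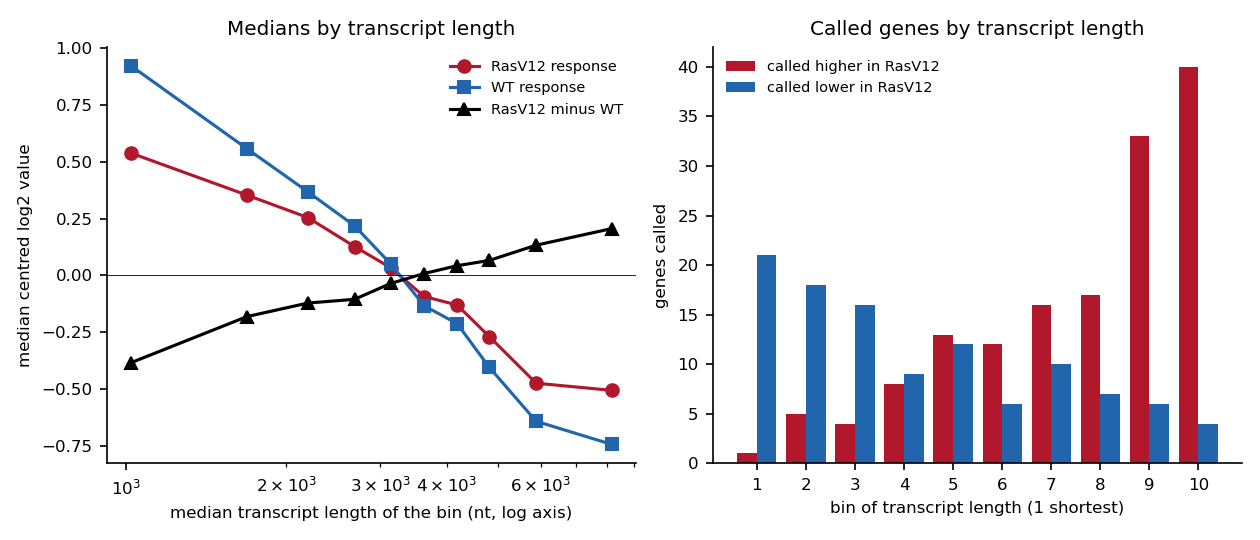
Left, median centred log2 response of RasV12 (red circles) and WT cells (blue squares) and median difference (black triangles) in 10 bins of genes by transcript length (log axis). Right, number of genes called higher (red) and lower (blue) in each bin. The median difference is -0.38 in the shortest and 0.21 in the longest bin, and the WT line is the steeper one.

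At the edge of the rule the values were small. Sh3gl3, just inside, was at 1.00 FPKM with CBD and 0.608 with DMSO in RasV12 cells, against 1.44 with CBD and 0.996 with DMSO in WT cells. Mthfs, just outside, was at 4.77 FPKM with CBD and 1.79 with DMSO in RasV12 cells, against 0.999 with CBD and 0.966 with DMSO in WT cells. Among members, 31 had a difference of more than 2 in size and were not called. Of these, 26 had no transcript of 300 nt or more, 24 were listed at 0 FPKM in at least 1 group, and their median SE was 5.12. They were mostly small nucleolar RNAs and microRNA precursors.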

How the data were processed

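Column-purified total RNA went into Illumina TruSeq libraries, per the labels' protocols. The submitters' processing notes name TopHat, Cufflinks and the mm9 build, without versions. The authors' deposited tables held 1 FPKM per group and gene, over its 2 libraries per the file headers. Beside it stood the unadjusted p-value of the authors, in steps of 5e-05 in the RasV12 table and down to 0 in the WT table. Both kinds entered 1 test, which is a limit of it. Counts were not used here.

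Older symbols were replaced through RefSeq synonyms. Of repeated symbols the highest row was used if the others were under 10% of it. Rows without a name (199, WT table) or named as dates (26 in each) were left out, as were 108 RasV12 and 41 WT genes without a match. Each line's median response was subtracted. The SE of a response was its size divided by the normal quantile of the authors' p, an upper bound at the lowest p, and the median SE of genes of like level where p was over 0.9. Differences were tested with a two-sided normal test and Benjamini-Hochberg adjustment (Python 3.11.15, scipy 1.17.1) and called under 0.05. The 2 contrasts share no samples. Some genes are not reported here, though they stayed in every fit and count. Those aside, the genes picked were the 12 largest differences each way among called genes at 5 FPKM or more and 6 opposite calls each way. To these came up to 4 called members of each of 41 lists or else the 2 largest, and a set of marker genes. Where a list had no called member, the text does not always name the 2 largest, leaving out for example Cdc25b and Kif2c. Other list members it names, such as Jag2, Notch1, Jund and Fn1, were picked after their values were seen. The members and lists were chosen with earlier results of these data known.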

Additional observations from a re-analysis of the deposited data

Results flagged for a closer look

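The results below stood out because the responses of the RasV12 and WT lines to CBD differed in a test of the difference itself (two-sided normal test, Benjamini-Hochberg adjustment over 10431 genes). In number they were 150 genes with a higher and 111 with a lower response in RasV12 cells. Among the higher ones the log2 difference was 3.72 for Amotl2, 2.93 for Jag1, 2.87 for Ccn1, 2.40 for Gas1, 2.37 for Prss23, 2.29 for Enc1, 2.28 for Lratd2, 2.26 for Cacna1g, 2.20 for Fignl1, 2.19 for Snx18 and 2.18 for Dll1. Among the lower ones it was -4.04 for Dusp1, -3.99 for Egr1, -3.31 for Gm20594, -2.73 for Serpinb2, -2.45 for Wfdc18, -2.39 for the merged Krt6a, Krt82 and Krt85 locus, -2.36 for Ly6a, -2.34 for Krt42, -2.30 for Sbsn, -2.27 for Tor4a, -2.26 for Anxa1 and -2.24 for S100a11.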

How the results depend on the processing

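No paired analysis was possible because the tables held no value per library, and for the same reason no library could be left out in turn. Without centring 720 genes were called higher and 62 lower, and with equal FPKM sums 431 and 59, and these 62 and 59 were all among the 111. Without centring the members called higher numbered 9 for G1/S, 8 each for BMP, matrix and PI3 kinase, 7 for Notch, 5 for elongation, 4 each for Hedgehog components and cilium and 3 each for G2/M, Wnt and cholesterol genes, and 4 heat shock and 5 immediate early genes were called lower. The medians of 16 of the lists changed side of 0 without centring, with equal FPKM sums or both, as the median of all genes did (0.32 and 0.23). Of called list members named here, Fbf1, Klf6, Hspb8, Msx2, Pmvk and Ndrg1 were not called with a pseudocount of 5, Myc, Mcm2, Rbpj and Foxo1 with one of 0.1, and Fbf1, Klf6, Sox11, Rbpj and Foxo1 with the SE by level. Centring by transcript length gave 102 calls on the higher side, a pseudocount of 0.1 or 5 gave 170 and 167 there and 108 and 125 on the lower side, a minimum of 5 FPKM 131 and 77, no minimum 201 and 147, and the SE by level 202 and 196, of which 137 and 100 were among the 150 and 111. Leaving out repeated symbols gave 146 and 107, and symbols as written 147 and 108. Of the 65 called genes that the naming rule gave, which leave out Hspb8, Klf6, Myc, Jund and Ier2, between 0 and 10 lost the call in any 1 of these settings and none changed sign. The differences of Ift88 (0.28 without centring, 0.15 with equal sums) and Hras (0.32, 0.24, 0.045 by length, 0.092 with a pseudocount of 5 and 0.0029 with no minimum) turned positive, and neither was called in these settings. The depth is unknown, so what it limits cannot be given.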
